A study of Homo sapiens with 3 samples.

Results

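Small nucleolar RNAs (snoRNAs) and small Cajal body RNAs (scaRNAs) were followed through 2 deposited ChIP-seq peak lists, one for Flag-USP39 and one for POLR2A. Members were the annotated genes whose symbols begin with SNORA, SNORD or SCARNA, apart from SNORD141A and SNORD141B, and each peak position was counted once however many genes it was assigned to. Of 11565 Flag-USP39 peaks, 74 carried a member, and of 14027 POLR2A peaks, 139 did. The RefSeq gene table holds 571 such genes, by name 360 box C/D snoRNAs (SNORD), 182 box H/ACA snoRNAs (SNORA) and 29 scaRNAs. A peak line in either list was found for 161 of them, and 410 had none. No share over all genes stands beside these counts, so they do not set the members apart from other genes. Both lists come from A2780, a serous ovarian cancer cell line, with 1 library per group and therefore no replicates. One group is cells with Flag-USP39 precipitated with anti-Flag, one is an anti-POLR2A precipitation named as the positive control, and one is an input of 10% of the genomic DNA that both lists share. How Flag-USP39 was introduced, and whether the line is a single clone, is not stated in the labels, and no anti-Flag library of cells without the tag was analysed here.

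Box C/D snoRNAs guide 2′-O-methylation and box H/ACA snoRNAs guide pseudouridylation, mostly of ribosomal RNA, whereas scaRNAs guide the same changes in spliceosomal small nuclear RNAs within Cajal bodies. Most human members have no promoter of their own: they lie in introns of host genes, many of which encode ribosomal proteins, translation factors or long noncoding RNAs, and are released after splicing by exonuclease trimming. POLR2A is the largest subunit of RNA polymerase II, which transcribes these hosts, and USP39 is a component of the U4/U6.U5 tri-snRNP of the spliceosome. Host genes of snoRNAs often belong to the terminal oligopyrimidine class, whose transcripts start with a C followed by a run of pyrimidines.

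The start sites of 18 host loci lay under a POLR2A peak that was assigned to a member. None of the 18 peaks met a Flag-USP39 peak, beside 5.74% of all promoter-class POLR2A peaks. A stretch of sequence around the start is shown for 7 of those hosts. These 7 are a selection in which the run marked below is more frequent than among all hosts searched. Each stretch holds the 40 bases before the RefSeq start and the first 20 bases from it on, 5′ to 3′ on the gene's own strand, in build GRCh38.p14 (RefSeq). Capitals mark a C at the start followed by at least 3 C or T letters without a break. The strand is plus for all but SNHG7 and SNHG1, which are on the minus strand.
CSKMT, the host of SNORA57: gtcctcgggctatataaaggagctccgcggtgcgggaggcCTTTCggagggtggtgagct
ZFAS1, the host of SNORD12, SNORD12B and SNORD12C: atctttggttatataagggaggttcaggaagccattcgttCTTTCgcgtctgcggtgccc
RABGGTB, the host of SNORD45C: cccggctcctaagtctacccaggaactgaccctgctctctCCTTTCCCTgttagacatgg
EIF4A2, the host of SNORD2: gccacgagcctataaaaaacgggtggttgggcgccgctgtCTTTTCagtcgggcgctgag
RPLP2, the host of SNORA52: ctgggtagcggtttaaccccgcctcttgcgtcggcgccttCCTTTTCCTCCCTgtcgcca
SNHG7, the host of SNORA17A and SNORA17B: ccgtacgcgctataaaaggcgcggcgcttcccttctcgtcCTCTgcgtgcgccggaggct
SNHG1, the host of SNORD25 to SNORD28: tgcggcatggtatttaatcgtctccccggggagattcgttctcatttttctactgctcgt
The SNHG1 stretch has no capitals, since its start base is followed by too short a run. Of 19 host genes with a covered start, the search covered 14, with 15 start entries in the table. It left out RPS20, and SNHG25, RPL23, RPS2 and SNHG9 had no entry to search. The run was at 9 of these 15 entries (60%), beside 1914 of 35116 entries of all genes (5.45%). Of the searched hosts not shown, SNHG32, RPL3 and RPSA had the run, and GAS5, RPL4, PPAN and RBMX did not. The letters TATAA, searched on the gene's own strand only, lay from 40 to 15 bases before the start in 5 of the 15 (33.3%), beside 1372 of all entries (3.91%), and CSKMT, ZFAS1, EIF4A2 and SNHG7 carried both. These matches describe letters near a start and no site was tested.

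In the deposited annotation, a promoter-class line puts the peak's centre within 2 kb of the start of the gene it is assigned to. Of the 74 Flag-USP39 member peaks, 24 were of this class (32.4%, 95% Wilson interval 22.9 to 43.7), beside 5.78% of all Flag-USP39 peaks. Of the 139 POLR2A member peaks, 75 were (54.0%, 45.7 to 62.0), beside 17.9% of all POLR2A peaks. Member peaks fell only into the promoter, upstream and intergenic classes, whereas the lists also hold intron peaks. The compared sets therefore differ in annotation, and what this adds to the shares was not tested. Intervals here and below cover counting error only. Among genes, 30 of 571 members had a promoter-class Flag-USP39 peak (5.25%, 3.70 to 7.40), beside 2.47% of protein-coding genes, and 91 had a POLR2A one (15.9%, 13.2 to 19.2), beside 11.1%. Of the promoter-class peaks, 5 of 24 for Flag-USP39 and 29 of 75 for POLR2A carried 2 or more members. Member genes are therefore not independent, while the gene intervals here and by kind treat them as if they were. There were 19 members with both and 102 with either, again with no share over all genes beside them.

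By kind, a promoter-class Flag-USP39 peak was assigned to 17 of 360 box C/D genes (4.72%), 9 of 182 box H/ACA genes (4.95%) and 4 of 29 scaRNA genes (13.8%, 5.50 to 30.6). The intervals of the 3 kinds overlap, and with 4 genes the scaRNA share is wide. For POLR2A the shares were 59 of 360 (16.4%), 26 of 182 (14.3%) and 6 of 29 (20.7%, 9.85 to 38.4).

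Tag counts, the deposited number of reads in a peak, were small. The median member promoter peak held 5 tags for Flag-USP39 and 6 for POLR2A, beside a median of 4 over all peaks of either list. The smallest peak a list could hold had 3 tags for Flag-USP39 and 4 for POLR2A, so 13 of the 24 and 35 of the 75 peaks stood at 5 tags or fewer. Peaks of at least 10 tags numbered 3 of the 74 Flag-USP39 member peaks (4.05%), beside 2.92% of all peaks, and 19 of the 139 POLR2A member peaks (13.7%), beside 4.23%. All 3 of the former and 17 of the latter were of the promoter class.

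The promoter-class member peaks of the lists were compared by an overlap of at least 1 bp. Of the 24 Flag-USP39 peaks, 14 overlapped a POLR2A peak (58.3%, 38.8 to 75.5), beside 20.2% of all promoter-class Flag-USP39 peaks. Of the 75 POLR2A peaks, 14 overlapped a Flag-USP39 peak (18.7%, 11.5 to 28.9), beside 5.74%. Outside the promoter class 1 of 50 Flag-USP39 member peaks and 1 of 64 POLR2A member peaks overlapped the other list, beside 5.17% and 4.97% of all such peaks. Both lists were called against the same input, and what that shared input adds to the overlap was not tested.

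**Figure D1:**
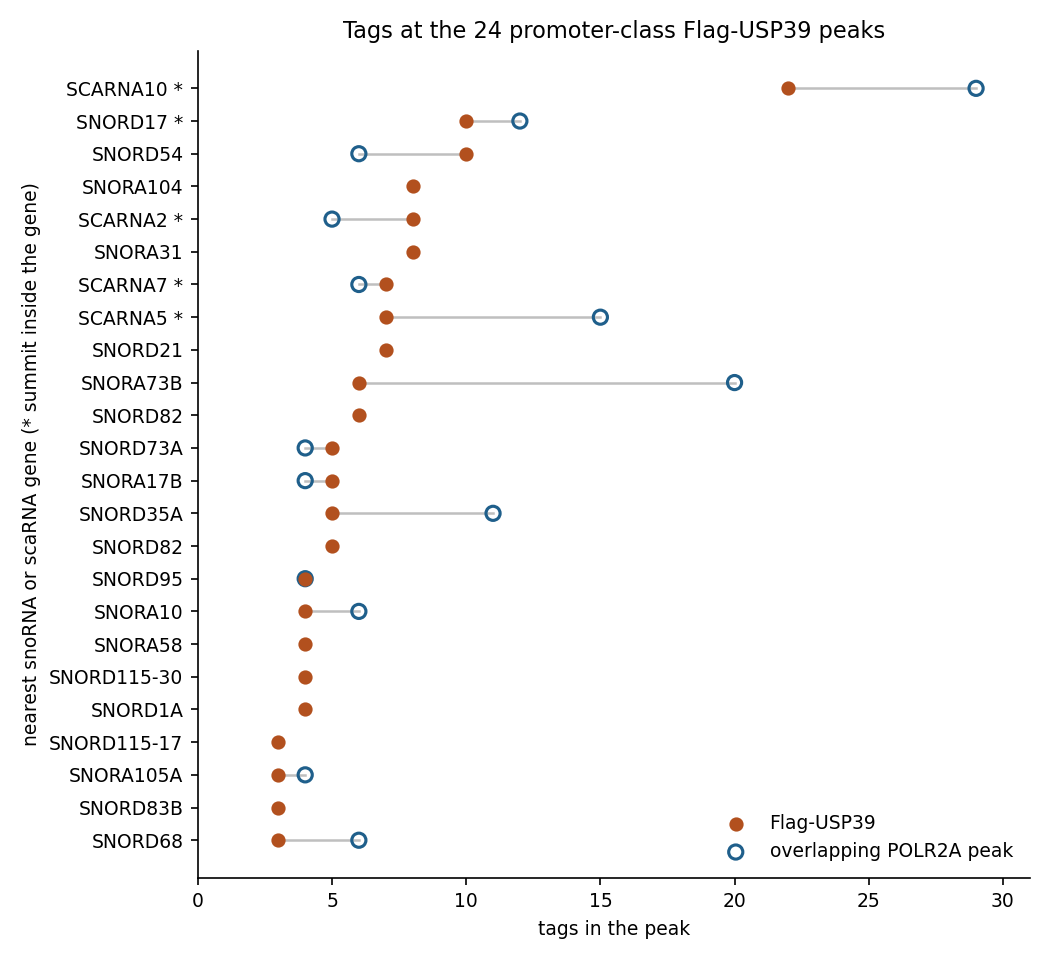
Tags in each of the 24 promoter-class Flag-USP39 member peaks (filled) and in the overlapping POLR2A peak where there is one (open), on a linear axis. SCARNA10 stands alone at 22 and 29 tags, and the 5 peaks marked with an asterisk, whose summit lies inside the small RNA gene, all have a POLR2A partner.

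Of the 24 promoter-class Flag-USP39 peaks, 5 had their summit inside a small RNA gene, and 4 of those 5 genes are scaRNAs. These 5 peaks held 7 to 22 tags. The 18 peaks with neither their summit in an RNA gene nor a host start under them held 3 to 10. Any overlap with a member gene, in place of the summit, held for 9 of the 24. SCARNA10, which guides modification of the U5 snRNA, lies in an intron of NCAPD2, a condensin subunit. Its Flag-USP39 peak (chr12:6619399-6619767, hg19) held 22 tags (exact Poisson interval 13.8 to 33.3) and its POLR2A peak (chr12:6619343-6619807) held 29 (19.4 to 41.6). The authors' fold enrichment over background, a ratio given for each peak within its own list, was 44.6 and 45.2. Both summits lay inside the 330-nt gene, 195 and 181 bases from its start, while the annotated NCAPD2 start was 16286 bp from the centre of the Flag-USP39 peak.

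SNORD17, a box C/D RNA in an intron of SNX5, a sorting nexin, is the only snoRNA of the 5. It had 10 Flag-USP39 tags (4.80 to 18.4, chr20:17943314-17943599) and 12 POLR2A tags (6.20 to 21.0, chr20:17943136-17943600). The summits lay 134 and 170 bases into a gene of 237 nt, and the SNX5 start was 6177 bp from the Flag-USP39 peak's centre.

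SCARNA2, which is transcribed from a promoter of its own, had no host in the RefSeq table. Its Flag-USP39 peak held 8 tags (3.45 to 15.8, chr1:109642699-109643097) and its POLR2A peak 5 (1.62 to 11.7, chr1:109642786-109643266). The summits lay 83 and 123 bases from the start of the 420-nt gene, and the intervals of the tag counts overlap.

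SCARNA7 lies in KPNA4, which encodes an importin alpha, and SCARNA5 lies in the autophagy gene ATG16L1. At SCARNA7 the Flag-USP39 peak held 7 tags (chr3:160232745-160233066) and the POLR2A peak 6 (chr3:160232652-160233065), with summits 120 and 175 bases into a 330-nt gene whose host start lay 50470 bp from the Flag-USP39 centre. At SCARNA5 they held 7 (2.81 to 14.4, chr2:234184299-234184631) and 15 (8.40 to 24.7, chr2:234183964-234184686), with summits 93 and 139 bases into a gene of 278 nt. The SCARNA5 counts have the most unequal ratio among the 5 genes, and their intervals overlap.

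At these 5 genes Flag-USP39 held 54 tags and POLR2A 67, a Flag-USP39 share of 44.6% (36.1 to 53.5). SCARNA10 alone gave 22 and 29 of these tags. Shares of tags here are not scaled for library depth, and their intervals treat tags as independent. The Flag-USP39 share was 40.9% (32.2 to 50.3) at the other 9 member pairs. It was 47.4% over all 135 promoter-class pairs of the lists, which lies inside the interval at the small RNA genes. The position of a summit inside the RNA gene was chosen as a description after the data were seen. It depends on gene length: the shortest of the 5 genes has 237 nt, against a median of 97 nt over the members, and 13 members are at least that long. Of those 13, 10 are scaRNAs, 5 held a Flag-USP39 summit and 6 a POLR2A summit. SCARNA9, SCARNA12, SCARNA13, SCARNA17, SCARNA9L and the box H/ACA gene SNORA92, all at least 237 nt, had no promoter-class peak in either list.

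The POLR2A list had 6 more peaks with a summit inside a member gene, none of which overlapped a Flag-USP39 peak. SCARNA28 held 7 tags, at a locus where the microRNA gene MIR3609 is annotated on the same peak. SCARNA6, the other scaRNA of ATG16L1, held 5 tags in its 266-nt gene. SNORA63 in EIF4A2 held 8, SNORA74A held 7, SNORD43 in RPL3 held 6 and SNORD133 in LARP4 held 4. A Flag-USP39 signal of under 3 tags could not have been listed at any of them.

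**Figure D2:**
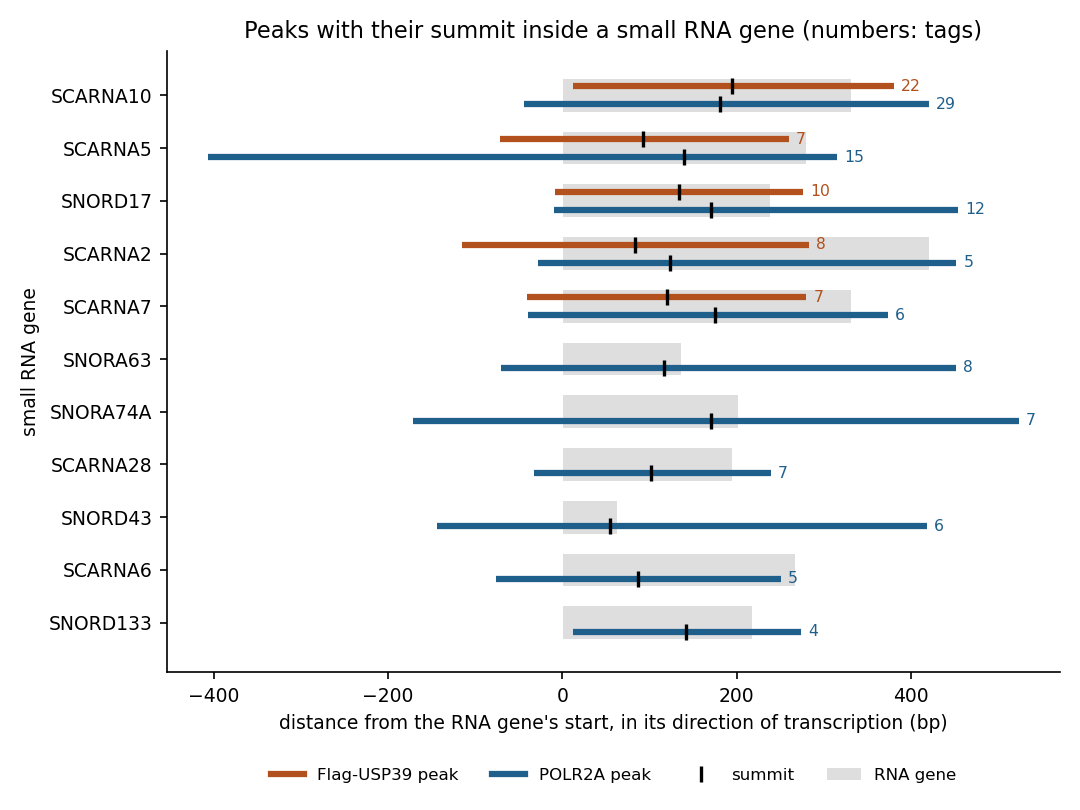
Extent of each promoter-class peak whose summit (black tick) lies inside a small RNA gene (grey bar), in bp from the gene's start, with the tags beside it. The top 5 genes have a Flag-USP39 and a POLR2A peak, with summits 83 to 195 bases into the gene, and the other 6 have a POLR2A peak only.

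The POLR2A peaks of the members lay over host starts in 18 of 75 cases, and none of these 18 overlapped a Flag-USP39 peak (0%, Wilson upper bound 17.6%). Over all promoter-class POLR2A peaks the share was 5.74%, which lies below that bound, so 0 of 18 cannot be told apart from it. The 18 peaks held 4 to 15 tags with a median of 7. With the summit inside the RNA gene, 5 of 11 overlapped. Of the 45 with neither the summit in an RNA gene nor a gene start under them, 9 did (20%, 10.9 to 33.8). The remaining POLR2A peak covered the start of CD68, a gene next to SNORA67, and met no Flag-USP39 peak. These position classes were formed after the data were seen, so the difference between them is a description with no test. A host start could be counted only where the host was listed on the peak. The host had no line in either list for 7 of the 24 Flag-USP39 and 12 of the 75 POLR2A peaks. No host was found for 3 and 2 more. Such peaks count under neither unless their summit lay in the RNA gene. In the Flag-USP39 list 1 of 24 promoter-class peaks covered a host start, at RACK1, the host of SNORD95, with 4 tags. It met a 4-tag POLR2A peak that was centred 484 bp downstream of that start and did not cover it.

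**Figure D3:**
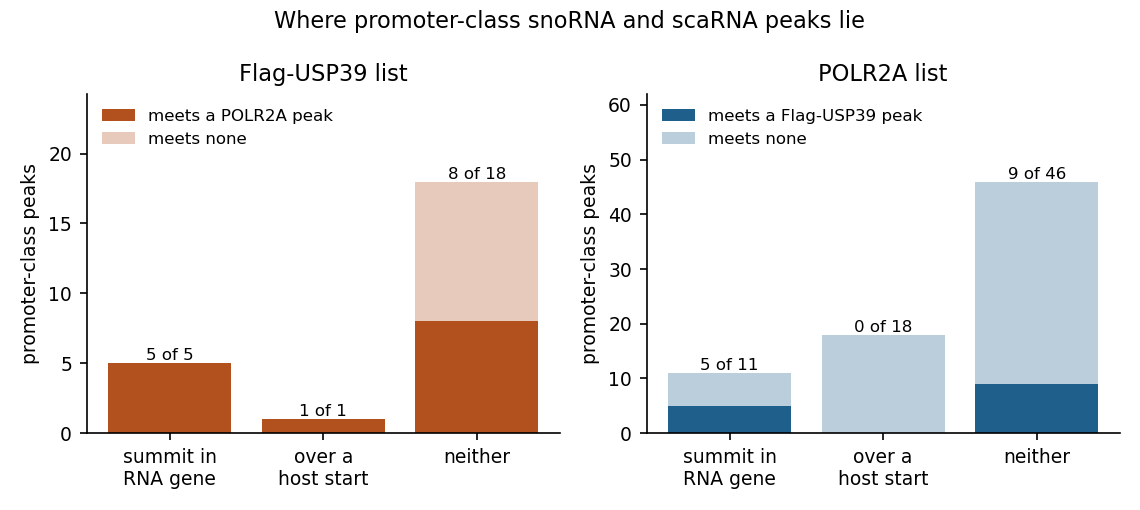
Number of promoter-class member peaks by position (bars) and how many of them overlap the other antibody's list (dark part, and the first number above each bar). All 5 Flag-USP39 peaks with the summit in the RNA gene meet POLR2A, and 0 of 18 POLR2A peaks over a host start meet Flag-USP39. Over all promoter-class peaks, 20.2% of the Flag-USP39 list and 5.74% of the POLR2A list meet the other. The POLR2A peak over CD68 is counted under neither. So are peaks without a listed host, unless their summit lies in the RNA gene.

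The host starts named with their sequences above carried the following POLR2A peaks. At CSKMT, a citrate synthase methyltransferase listed as METTL12, the peak held 15 tags (8.40 to 24.7, chr11:62432364-62433001 in hg19). It also reached SNORA57 and covered the start of C11orf98, which was nearer to its centre. At ZFAS1, a noncoding host with 3 box C/D RNAs, it held 10 (4.80 to 18.4, chr20:47894928-47895748). At SNHG1, a noncoding host, it held 11 (5.49 to 19.7, chr11:62623103-62623834), and it also covered the nearer start of SLC3A2, which encodes an amino acid transporter subunit, so neither peak can be assigned to the host alone. Relative to the host start these peaks were centred at -95, 160 and -108 bp, and relative to the nearest member start at -211, -143 and -365 bp, so host and small RNA start lie too close together here to be told apart by a peak.

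At other hosts the starts lie further apart. RABGGTB, which encodes a prenyltransferase subunit, had 9 POLR2A tags centred at -34 bp from its own start and at -912 bp from that of SNORD45C. EIF4A2, an RNA helicase of translation initiation, had 8 tags over its start, centred at -1337 bp from that of SNORD2. RPLP2, a ribosomal stalk protein, had 4 tags centred at -19 bp from its own start and at -1764 bp from that of SNORA52. These 3 peaks lay over the host start, and those of EIF4A2 and RPLP2 are over 1 kb from the member. Over all promoter-class member peaks, another gene's start was nearer than any member's in 23 of 75 POLR2A peaks (30.7%) and in 1 of 24 Flag-USP39 peaks (4.17%).

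The other hosts whose starts were covered were SNHG25 with 12 tags, GAS5 and RPS20 with 8, RPL23 and SNHG32 (listed as C6orf48) with 7, RPL3, RPL4 and RPS2 with SNHG9 with 6, SNHG7 with 5, and RBMX, PPAN and RPSA with 4. RPS2 and SNHG9 start from the same region in opposite directions, so their peak cannot be assigned to either.

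**Figure D4:**
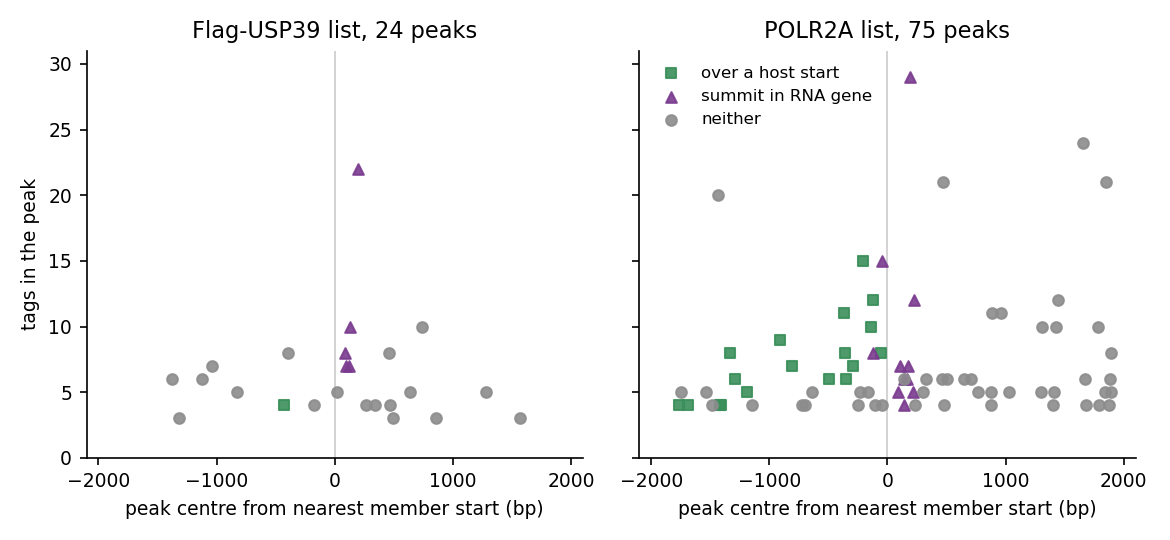
Tags in each promoter-class member peak against the distance in bp of its centre from the nearest member's start, negative upstream, with 24 Flag-USP39 peaks on the left and 75 POLR2A peaks on the right. Peaks over host starts (squares) lie upstream of the members and hold 4 to 15 tags. Peaks with the summit in the RNA gene (triangles) lie close to the start by definition, since these genes are short.

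The 4 POLR2A peaks with the most tags after SCARNA10 lay neither with their summit in a small RNA gene nor over a listed host start. In EIF4A2 a peak 1269 bp long (chr3:186506418-186507686) held 24 tags (15.4 to 35.7), 5692 bp from the host start, and was assigned to SNORA4 and SNORA63, box H/ACA RNAs of its introns. A peak with 21 tags (chr17:16344672-16345339) was assigned to SNORD65 and SNORD49A, RNAs of the noncoding host SNHG29, which has no line in either list. A peak with 21 tags (chr1:173830869-173832142) was assigned to SNORD81, an RNA of the noncoding host GAS5, and to the nearer start of GAS5-AS1. It lay past the annotated end of GAS5. SNORA73B, with 20 tags, is described with its Flag-USP39 partner. Flag-USP39 had no peak overlapping the other 3. The peak with 12 tags in EIF4G2, a translation factor gene, was assigned to SNORD97 and met no Flag-USP39 peak either.

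Counted by the host of the assigned member, wherever the peak itself lay, the 75 POLR2A promoter-class peaks belonged to 12 noncoding hosts with 22 peaks and 189 tags, 15 ribosomal protein genes (RACK1 included) with 23 peaks and 136 tags, and 5 translation factor genes with 8 peaks and 78 tags. A further 18 hosts of other functions had 20 peaks and 153 tags, and 2 peaks had no host. Several hosts carried more than 1 peak: EIF4A2 had 3 with 40 tags in all, GAS5 had 3 with 35, SNHG3 had 3 with 31 and SNHG1 had 3 with 21, and the peaks of GAS5 and of SNHG1 reached 8 members each. These are not independent of each other. The centre was inside the host's span in 44 of the 75 peaks, and 10 lay outside it and over no host start. Among those were the peak over CD68, counted under EIF4A1, and a 10-tag peak within TLCD1, counted under RPL23A. A further 12 had a host with no line in the tables. The 24 Flag-USP39 peaks belonged in the same way to 4 noncoding hosts with 5 peaks and 22 tags, 8 ribosomal protein genes with 8 peaks and 41 tags, and 7 other hosts with 8 peaks and 69 tags, with 3 peaks whose members have no host and none for a translation factor gene.

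Apart from the peaks with their summit in a small RNA gene and the peak at RACK1, 8 more promoter-class Flag-USP39 peaks met POLR2A. Of these 8, 6 were centred within the span of the host. SNORD54, in the ribosomal protein gene RPS20, had 10 Flag-USP39 tags and 6 POLR2A tags, 1417 and 1389 bp from the host start, while a separate POLR2A peak with 8 tags covered that start and met no Flag-USP39 peak. SNORA73B, an RNA of the box H/ACA kind needed for 18S rRNA processing, had 6 tags (2.2 to 13.1) against 20 for POLR2A (12.2 to 30.9), 1494 and 1181 bp from the SNHG3 start. That peak was also assigned to RCC1. SNORD35A, SNORD34 and SNORD33 in RPL13A shared a peak of 5 Flag-USP39 and 11 POLR2A tags. The rest held 3 to 5 Flag-USP39 tags and 4 to 6 POLR2A tags, at SNORD73A in RPS3A, SNORA17B in SNHG7, SNORA10 and SNORA64 in RPS2, SNORD68 in RPL13, and SNORA105A with SNORA105B. The intervals of counts this low overlap at each of them, and the paired SNORA105A and SNORA105B genes are copies between which reads may be split. RefSeq places SNORA105A on chromosome 5 and SNORA105B on chromosome 2. Their peaks here lie on chromosome 5 but were assigned to both, so the gene counts above include both.

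The 10 promoter-class Flag-USP39 peaks with no POLR2A partner held 3 to 8 tags. SNORA104 had 8 tags (3.45 to 15.8, chr19:14732457-14732806), centred at -393 bp from its start, and no RefSeq host. SNORA31, in TPT1, had 8 tags 4130 bp from the host start, and SNORD21, in the ribosomal protein gene RPL5, had 7 tags 4211 bp from it. SNORD82, in the nucleolin gene NCL, had 2 peaks with 6 and 5 tags. The others were SNORA58, SNORD115-30 and SNORD1A with SNORD1B at 4 tags, and SNORD115-17 with SNORD115-18 and SNORD115-19, and SNORD83B, at 3 tags, the fewest the list holds.

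Of 8 genes known for a promoter of their own, SCARNA2 alone had a peak, in both lists. That is 12.5%, beside 5.25% of all members for Flag-USP39 and 15.9% for POLR2A, and a list of 8 genes cannot separate these. SNORD3A, SNORD118 and SNORD13, RNAs that act in ribosomal RNA processing and are transcribed independently, had no peak line in either list. SNORD3A has near-identical copies, and no label states how reads with several places in the genome were treated. Of 124 genes of the imprinted SNORD clusters, 4 SNORD115 copies (3.23%) had a promoter-class Flag-USP39 peak, beside 5.25% of all members. SNORD116-14, SNORD116-15 and SNORD116-16 (2.42%) shared a POLR2A peak of 4 tags, beside 15.9% of all members. These copies resemble each other in sequence, so their counts are uncertain.

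Most genes around the RNAs had no promoter-class Flag-USP39 peak, and the same is true of protein-coding genes in general. Of 33 noncoding host genes, 1 (SNHG3) had a promoter-class Flag-USP39 peak (3.03%) and 9 had a POLR2A one (27.3%). The POLR2A count is too low, since it leaves out SNHG32, which is listed as C6orf48. The SNHG32 start lay under a POLR2A peak of 7 tags. Of 11 genes for box C/D core and assembly proteins, 0 had a Flag-USP39 promoter-class peak and 3 had a POLR2A one: NOP56, a core protein, with 6 tags centred at -9 bp from its start, and the assembly factors ZNHIT3 and ZNHIT6 with 4 each. None of the 6 box H/ACA protein genes had one in either list. Of 8 genes for Cajal body and small RNA maturation, TCOF1, the gene for the nucleolar protein treacle, had 6 POLR2A tags 439 bp downstream of its start, and none had a Flag-USP39 promoter-class peak. Beside these counts stand the protein-coding backgrounds of 2.47% for Flag-USP39 and 11.1% for POLR2A. In lists this small, Flag-USP39 counts of 0 or 1 cannot be told apart from 2.47%. No share over noncoding genes was set beside the 33 hosts.

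Peaks assigned to members outside the promoter class were 50 for Flag-USP39 and 64 for POLR2A, with a median of 4 tags in both lists. Of these, 24 and 21 lay over 20 kb from the member, so that their assignment says little about the small RNA. The upstream and intergenic classes are relative to the assigned small RNA: 13 of the 50 and 10 of the 64 were centred within the span of the host. Outside that span lay 9 and 16. For 20 and 33 the host had no line in either list, so they could not be placed, and 8 and 5 had no host. The POLR2A peak with the most tags, 13 (6.92 to 22.2, chr6:133139878-133141025), lay 2094 bp downstream of SNORA33, a box H/ACA RNA of the ribosomal protein gene RPS12. A peak assigned to SNORD96A, an RNA of RACK1, had 8 tags and lay outside that host's span. A peak of 7 tags on chromosome 1 was assigned to both SNORA59A and SNORA59B, although RefSeq places SNORA59B on chromosome 17. SNORA70G had 7.

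SCARNA23, an RNA of POLA1, was the single case outside the promoter class where the lists met. Flag-USP39 had 6 tags (2.2 to 13.1, chrX:24806554-24807314) and POLR2A 11 (5.49 to 19.7, chrX:24806605-24807172), 44377 and 44331 bp downstream of the gene. The remaining Flag-USP39 peaks of the most tags were SNORA70F and SNORD61 with 7 each, centred at -19978 and 5387 bp from the starts of their genes, and SNORA53 and SNORA30 with 6 each. None of these 4 met a POLR2A peak.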

How the data were processed

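Peak tables for Flag-USP39 and POLR2A, each against the shared input, were used, with 1 library per group and 3 libraries in all. Per the submitters' processing notes, Bowtie2 2.2.4 and MACS 1.4.3 were among the tools and the build was hg19. No label gives the annotation release, duplicate handling or library totals. The authors deposited a raw count of tags per peak, per the file headers. The score, per the file headers, is -10 times log10 of the p-value, so the lowest scores of 50 and 40 put the authors' thresholds at 1e-05 and 1e-04. The deposited fold enrichment is a ratio over background and the deposited FDR is in percent, reaching 0.01% and 0.26%, per the file headers. Scores, folds and FDR were used only within a list. The tags in all peaks summed to 62327 and 86228.

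Lines were reduced to peak positions, overlaps of at least 1 bp were counted, and shares carry 95% Wilson intervals and tag counts exact Poisson intervals (Python 3.11.15, pandas 2.3.3, scipy 1.17.1). These cover counting error only. No test was made. Hosts are RefSeq genes (GRCh38.p14) that contain the member, on the same strand where the host's strand was known. Host starts in hg19 came from the tables' own lines, so hosts without one have no distance. Of 208 table starts within 2 kb of member promoter-class peaks, 206 were listed on the peak. Members and gene lists were chosen with earlier results of these data known. Named genes were, per antibody, those at the 10 promoter-class peaks with most tags, at promoter-class peaks shared by both lists, all scaRNAs of that class, SNORD3A, SNORD118, SNORD13 and SCARNA2, the 5 other peaks with most tags, and core protein genes with a promoter-class peak. One result that this rule selects is not reported here. Other genes named make up a count or were chosen after their values were seen. Counting procedures were tested on simulated data. Alternatives were a p-value of at most 1e-10, at least 10 tags, 1 kb in place of the promoter class, 1e-05 in both lists, and overlap of a larger part of the shorter peak.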

Additional observations from a re-analysis of the deposited data

How the results depend on the processing

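Of the 51 values recomputed under an alternative, 31 stayed within the limits set for a change and 20 moved. With a p-value of at most 1e-10, promoter-class member peaks fell from 24 to 6 for Flag-USP39 and from 75 to 16 for POLR2A, and genes from 30 to 6 and from 91 to 23. With at least 10 tags, peaks came to 3 and 17 and genes to 3 and 27. With 1 kb in place of the promoter class, POLR2A had 45 peaks and 54 genes. The Flag-USP39 share nearer to a host start went from 4.17% to 0% under both stricter thresholds. Among settings added after the data were seen, Flag-USP39 summits in a member gene went from 5 to 3 (1e-10) and 2 (10 tags), and to 9 when any overlap with the gene counted. Those meeting POLR2A went from 5 to 2 and 2. POLR2A peaks over a host start went from 18 to 3 and 4, and those meeting Flag-USP39 from 0 to 1, at RACK1, when a centre within 500 bp of the start counted. The stricter settings keep fewer peaks by construction. The share of peaks that met the other list ranged from 41.7% to 66.7% for Flag-USP39 and from 11.8% to 24.4% for POLR2A over the alternatives.

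No paired analysis was possible because each group has 1 library and no replicate numbers are shared. With 3 or 4 tags as the fewest in a listed peak, weaker occupancy of a member could not be detected.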
